A study of Mus musculus with 15 samples.

Results

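The genes examined here were the chromatin modifiers and remodelers of mouse TAMs (tumor-associated macrophages), taken by gene symbol from a table of RNA-seq values. The members were the symbols that start with Kmt, Kdm, Kat, Hdac, Setd, Chd, Brd, Ezh, Arid, Dnmt or Tet and a digit, or with Smarc and a letter from a to e, leaving out Kdm5c, Kdm5d and symbols with -ps. This rule matched 106 of the 55335 genes in the table, of which 102 are annotated as protein coding. TAMs had been sorted by FACS from orthotopic tumors, which grew from Hepa1-6 cells, a mouse hepatoma line, placed in the liver of C57BL/6 mice. The 15 samples fell into 3 groups of 5, in which the tumor cells were control cells, overexpressed miR-144 or overexpressed miR-451a. The overexpression was in the HCC cells and not in the TAMs, all other labels were the same in the 3 groups, and the mice were not described further by sex, age or number per sample. The labels do not say that samples of a group came from separate mice, so p-values measure the spread between these samples, which may be technical. The study's own account of this RNA-seq names a smaller n than the number of samples per group here, so samples may share an animal, and the p-values would then be too small.

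Expression was given as FPKM, fragments scaled by transcript length and by the mapped fragments of the sample, so levels can be compared between genes per length. Differences between groups were tested with limma on log2(FPKM + 1) over the 11419 genes whose mean reached 1 FPKM, all 3 groups sharing 1 fit, and were called at an adjusted p under 0.05. Of the 106 members, 92 passed this filter on the mean over all samples and 14 did not, 2 of which, Dnmt3bos and Kdm4dl, were listed at 0 in every sample. A fold change is on the log2(FPKM + 1) scale and understates the change of genes with low values. In sorted bulk RNA, fewer cells of a type and less RNA per cell cannot be told apart.

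Chromatin is opened, closed and marked by several families of enzymes. Histone marks are written here by histone and lysine, as in H3K27. DNA methyltransferases add methyl groups to cytosine and TET dioxygenases oxidize them. Lysine methyltransferases (KMT, SETD and EZH) and acetyltransferases (KAT) write marks on histone tails, demethylases (KDM) and deacetylases (HDAC) remove them, and bromodomain proteins (BRD) read acetylated lysine. The SWI/SNF complex, built from SMARC and ARID subunits, and the CHD and ISWI ATPases move or evict nucleosomes. In macrophages these factors are known for setting which enhancers answer to inflammatory signals, with Kdm6b, Tet2 and class IIa HDACs among the best studied.

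The depth of the samples is not given in the sources used here. The smallest steps of the values gave a rough estimate of 15500000 to 30300000 fragments per sample, which is uncertain because only 33.8% to 46.3% of low values lay on a step, and every level of 3 fragments given for a gene rests on this estimate. Marker genes were measured to check the label of the cells and other cell types that the sort could hold. The summed level of 6 macrophage markers was 8640 to 9445 FPKM in control, 14518 to 16380 FPKM in miR-144 and 14218 to 15380 FPKM in miR-451a samples. Lyz2, the largest in level, made up most of this sum. Of the 6 markers, 5 were higher and 1 (Cd68) lower in each miRNA group. Of 7 hepatocyte or hepatoma markers, 5 (Alb, Apoa1, Ttr, Serpina1a and Apoc3) were listed at 0 in every sample, and the summed level stayed under 0.269 FPKM. The 6 T cell markers summed to at most 0.490 FPKM, with Cd3e and Cd3g at 0 in every sample, and the 5 neutrophil markers to at most 1.15 FPKM. The 4 dendritic cell markers summed to 0.252 to 0.314 FPKM in control, 0.444 to 0.670 FPKM in miR-144 and 0.424 to 0.643 FPKM in miR-451a samples. The 4 B cell markers summed to 0.138 to 0.375 FPKM in control and 1.11 to 1.73 FPKM in the miRNA groups, with Cd79b contributing most. The 4 fibroblast markers, led by the collagen gene Col1a1, summed to 99.7 to 124 FPKM in control and 136 to 217 FPKM in the miRNA groups, and 3 and 4 of them were higher in the miR-144 and miR-451a comparisons. The 5 endothelial markers, of which Clec4g was at 0 throughout, summed to 3.70 to 4.29 FPKM in control and 4.65 to 5.93 FPKM in the miRNA groups. Kdr contributed most, while the means of Pecam1 and Stab2 were lower in both miRNA groups. The 10 markers of cycling cells summed to 77.8 to 89.3 FPKM in control and 56.3 to 61.1 FPKM in the miRNA groups, with Pcna as the largest term, and of 8 tested 3 were higher and 3 lower in each comparison. The part of these differences in the results on chromatin genes was not tested.

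Most chromatin genes were higher in TAMs from miR-144 tumors than in TAMs from control tumors, by small amounts, and a few were much lower. In this comparison 73 of the 92 members tested passed the threshold (79.3%), against 67.2% of all genes tested, and 65 members were higher (47.1% of all genes) and 8 lower (20.1% of all genes). In TAMs from miR-451a tumors 71 members passed, against 68.3% of all genes, with 65 higher (48.1% of all genes) and 6 lower (20.3% of all genes). The median log2 fold change of the members was 0.21 in the miR-144 and 0.23 in the miR-451a comparison, beside 0.13 and 0.14 for all genes tested. A log2 fold change of 1 or more with an adjusted p under 0.05 was seen for 3 members in each comparison, namely Dnmt3a, Dnmt3aos and Kmt5a, all lower, against 7.78% and 8.27% of all genes. The values of the groups did not overlap for 60 members in each comparison, against 53.9% and 55.2% of all genes. Both comparisons use the same 5 control samples and are therefore not independent.

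The median of all genes tested was itself above 0, and the small differences changed with the scaling of the samples. After median centring, 36 members were higher and 14 lower in the miR-144 comparison (30.8% and 30.7% of all genes), and 41 were higher and 14 lower in the miR-451a comparison (31.3% and 31.8% of all genes). Quantile normalization gave 39 higher and 13 lower (32.0% and 29.3% of all genes) for miR-144 and 44 higher and 14 lower (32.9% and 30.0% of all genes) for miR-451a. With the trend against transcript length removed, 31 were higher and 19 lower (30.3% and 30.9% of all genes) for miR-144 and 33 higher and 17 lower (31.5% and 31.7% of all genes) for miR-451a. Rescaling to TPM moved the counts the other way, to 70 higher and 6 lower (53.7% and 16.4% of all genes) for miR-144. For miR-451a it gave 71 higher and 5 lower (55.6% and 16.3% of all genes). Calls that kept their direction as deposited and under median centring, quantile normalization, rescaling to TPM and removal of a trend with transcript length are called scaling-stable below. In the miR-144 comparison 31 members (33.7%) were scaling-stable and higher, against 27.2% of all genes, and 6 (Dnmt3a, Dnmt3aos, Kmt5a, Chd4, Kdm7a and Chd3os) were scaling-stable and lower, against 16.3% of all genes. In the miR-451a comparison 33 were scaling-stable and higher, against 27.9% of all genes, and 5 (Dnmt3a, Dnmt3aos, Kmt5a, Chd4 and Smarcb1) were scaling-stable and lower, against 16.2% of all genes. The median transcript length was 5412.5 bp for the members and 3074 bp for all genes tested, and Spearman's rho between length and log2 fold change was 0.26 and 0.27 across the 92 members and 0.15 and 0.16 across all genes tested, which share the same libraries and are not replicates.

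**Figure D1:**
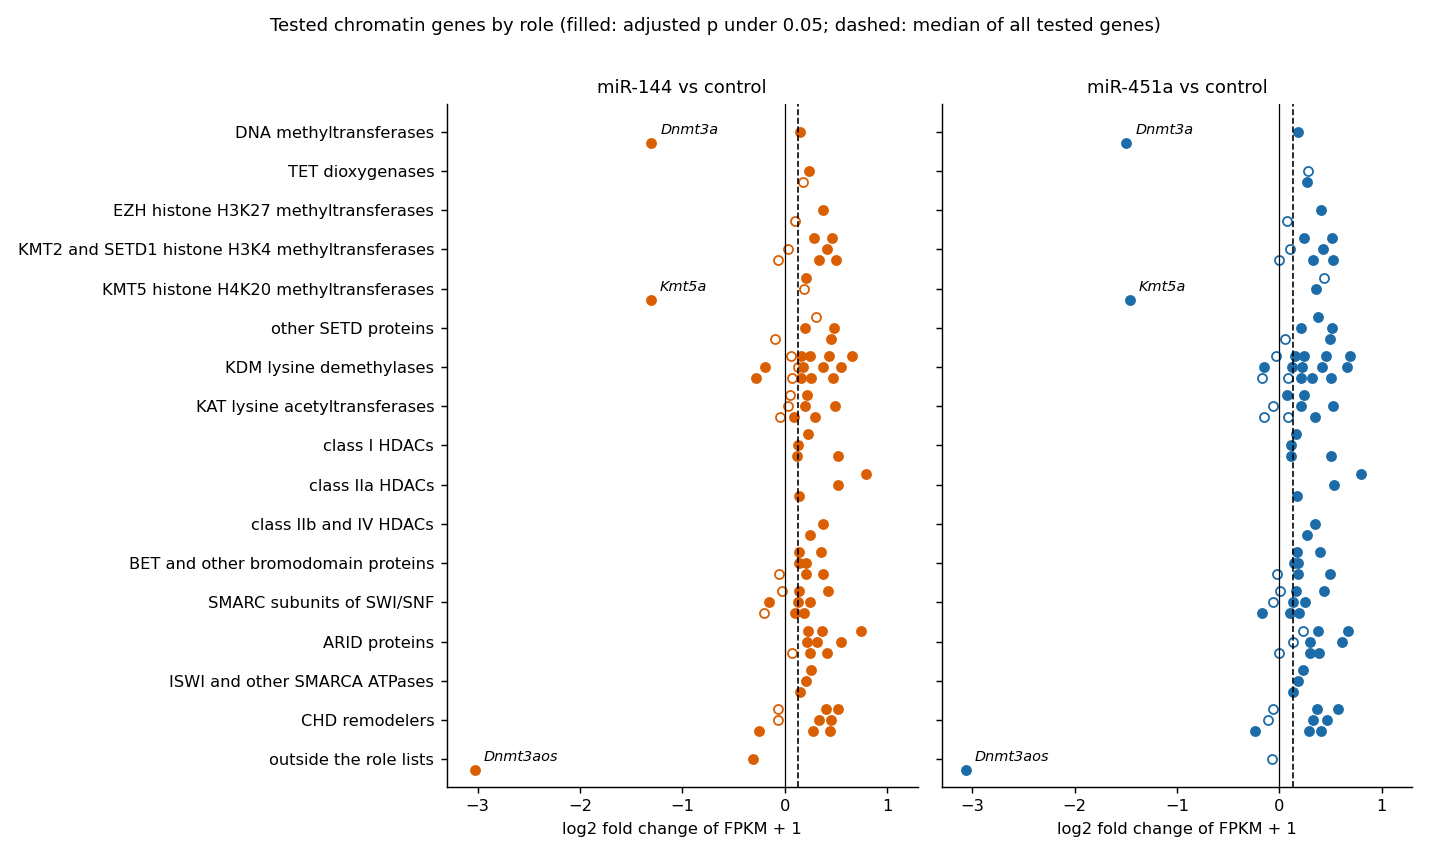
Log2 fold change of FPKM + 1 (x axis) of the 92 chromatin genes tested, grouped by role (y axis), for each miRNA group against control, with filled points for an adjusted p under 0.05, a solid line at 0 and a dashed line at the median of all genes tested (0.13 and 0.14). Most points lie between 0 and 0.80, whereas Dnmt3a, Kmt5a and Dnmt3aos lie below -1 in both panels.

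Among the DNA methylation genes, Dnmt3a and the noncoding Dnmt3aos beside it fell in both comparisons. Dnmt3a, the de novo DNA methyltransferase (ENSMUSG00000020661, chr12:3806007-3914443, plus strand, GRCm38), had 21.0, 20.8, 22.9, 22.3 and 20.1 FPKM in the control samples. The miR-144 samples had 4.94, 5.52, 10.3, 10.4 and 11.4 FPKM and the miR-451a samples 9.72, 5.40, 5.30, 10.2 and 5.56 FPKM. All 10 miRNA samples were thus below all 5 control samples, and the miRNA samples lay at 2 separate levels, 5 of them at 4.94 to 5.56 FPKM and 5 at 9.72 to 11.4 FPKM, with both levels present in each group. The log2 fold change of FPKM + 1 was -1.30 (SE 0.22, adjusted p = 9.71e-05) in the miR-144 group and -1.49 (SE 0.22, adjusted p = 2.44e-05) in the miR-451a group. The group means were 21.4 ± 1.14, 8.50 ± 3.03 and 7.24 ± 2.504 FPKM (SD, n = 5 each), so that Dnmt3a stood at 39.7% and 33.8% of control.

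Dnmt3aos (ENSMUSG00000073242, chr12:3859293-3862244, minus strand) is a noncoding transcript on the strand opposite to Dnmt3a. It lies inside the Dnmt3a gene, 9.60% of its exon bases overlap Dnmt3a exons, and its start site is 1223 bp from the nearest annotated Dnmt3a start. Dnmt3aos measured 17.3, 18.3, 18.7, 19.7 and 16.5 FPKM in the control samples, 1.13, 1.60, 1.19, 1.23 and 1.59 FPKM in the miR-144 samples and 0.990, 1.41, 1.02, 1.42 and 1.66 FPKM in the miR-451a samples. This was the largest difference of any member, with no overlap between control and miRNA samples. The log2 fold change of FPKM + 1 was -3.03 (SE 0.086, adjusted p = 1.85e-13) in the miR-144 group and -3.06 (SE 0.086, adjusted p = 1.48e-13) in the miR-451a group, and the means in the miRNA groups were 7.44% and 7.17% of control. The sources used here do not say whether fragments were counted by strand, so reads from the overlapping part cannot be assigned to Dnmt3a or Dnmt3aos with certainty.

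Dnmt1, the maintenance methyltransferase that copies methylation after replication, moved little. Dnmt1 measured 15.6, 14.8, 14.1, 14.4 and 15.2 FPKM in the control samples, 16.3, 16.9, 16.1, 15.7 and 17.8 FPKM in the miR-144 samples and 17.3, 17.3, 16.5, 15.9 and 17.7 FPKM in the miR-451a samples. The lowest miRNA sample was just above the highest control sample in each comparison (log2 fold change 0.15, adjusted p = 0.00328, in the miR-144 group and 0.18, adjusted p = 7.43e-04, in the miR-451a group), but the call was not scaling-stable, since the fold change was -0.05 and -0.03 after removal of the length trend and did not pass the threshold. The summed level of the cycling-cell markers given above was lower in the same groups, with Pcna falling from 61.8 to 39.6 and 36.8 FPKM. Of 8 of these markers tested, 3 were higher and 3 lower in each comparison, and their part in the Dnmt1 result was not tested. Dnmt3b, the second de novo enzyme, was under the filter at 0.504, 0.648 and 0.685 FPKM in the control, miR-144 and miR-451a groups, and did not pass in the fit without a filter (adjusted p = 0.135 and 0.0587). Dnmt3b shares 11.5% of its 50-base stretches with Dnmt3c, which was at or below 0.0189 FPKM in every sample.

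Of the TET dioxygenases, which oxidize methylcytosine, 1 of 2 tested passed in each comparison, beside 67.2% and 68.3% of all genes. Tet3 rose from 11.4 ± 0.44 to 13.6 ± 1.05 and 14.0 ± 0.32 FPKM (log2 fold change 0.24, adjusted p = 2.11e-04, in the miR-144 group and 0.27, adjusted p = 5.98e-05, in the miR-451a group), a call that was not scaling-stable in either comparison. Tet2 values were 3.89, 5.35, 3.90, 5.42 and 3.70 FPKM in control, 3.85, 5.92, 6.28, 5.90 and 4.03 FPKM in miR-144 and 5.56, 6.22, 6.08, 6.07 and 4.12 FPKM in miR-451a samples. These values overlapped, and each group held some samples at 3.70 to 4.12 FPKM and others at 5.35 FPKM or above (log2 fold change 0.18, adjusted p = 0.282, in the miR-144 group and 0.28, adjusted p = 0.0883, in the miR-451a group). Without miR-451a replicate 5, the Tet2 difference in the miR-451a group passed (log2 fold change 0.37, adjusted p = 0.0261), and so it did after rescaling to TPM (0.40, adjusted p = 0.0373).

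**Figure D2:**
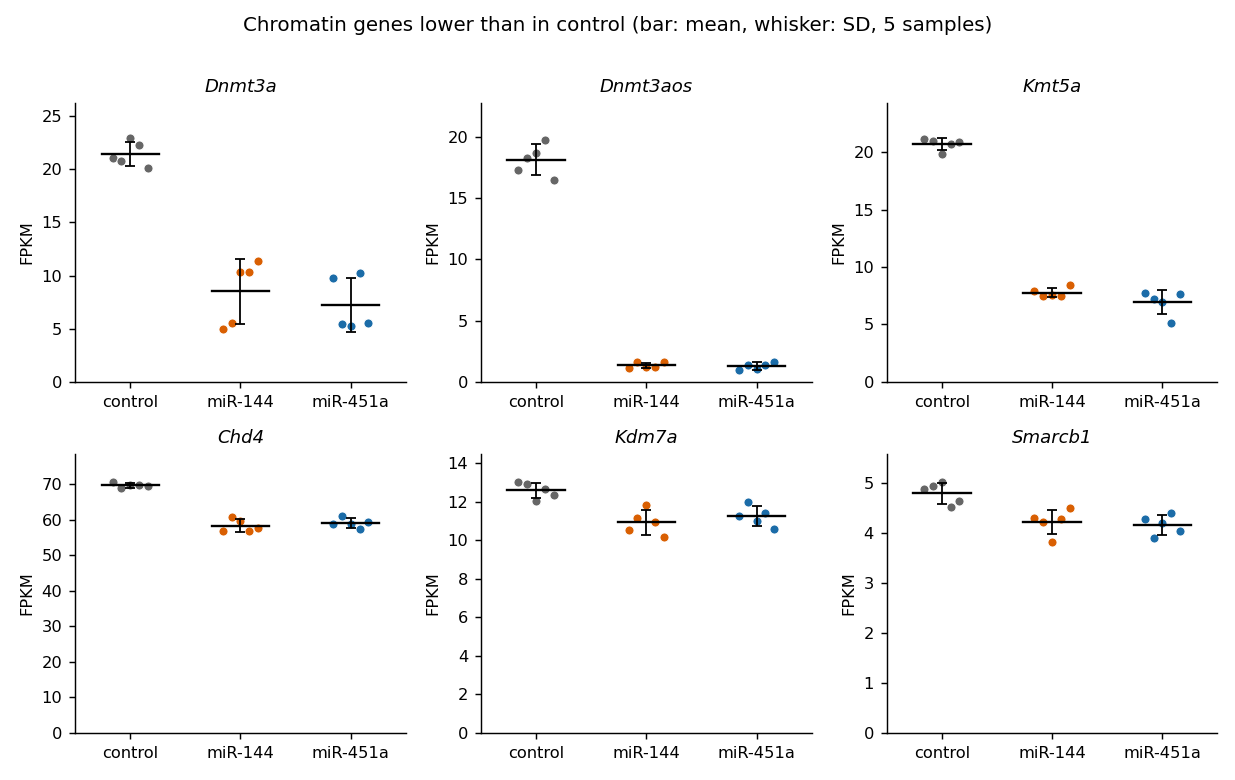
FPKM (y axis, linear from 0) of 6 chromatin genes called lower than control, in each of the 5 control, 5 miR-144 and 5 miR-451a samples (points), with the mean (bar) and SD (whisker). Dnmt3a, Dnmt3aos and Kmt5a in the miRNA samples lie far below every control sample, while Chd4, Kdm7a and Smarcb1 lie lower by a small part of their level.

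Among histone methyltransferases, Kmt5a fell strongly while most others rose or did not pass. Kmt5a (also called Set8; ENSMUSG00000049327, chr5:124439930-124462308, plus strand) adds the first methyl group at H4K20, a mark tied to the cell cycle. Kmt5a measured 21.2, 21.0, 19.8, 20.7 and 20.9 FPKM in the control samples, 7.92, 7.48, 7.60, 7.48 and 8.41 FPKM in the miR-144 samples and 7.74, 7.23, 6.96, 5.15 and 7.62 FPKM in the miR-451a samples. The miRNA samples lay between 5.15 and 8.41 FPKM and all control samples between 19.8 and 21.2 FPKM. Its log2 fold change of FPKM + 1 was -1.31 (SE 0.076, adjusted p = 6.87e-10) in the miR-144 group and -1.46 (SE 0.076, adjusted p = 1.76e-10) in the miR-451a group, with means at 37.5% and 33.5% of control. Kmt5b, which adds further methyl groups at the same lysine, was instead higher, at 3.33 ± 0.27, 3.99 ± 0.35 and 4.53 ± 0.27 FPKM (log2 fold change 0.21, adjusted p = 0.00442, in the miR-144 group and 0.36, adjusted p = 4.29e-05, in the miR-451a group), and this call was scaling-stable only in the miR-451a comparison. Kmt5c, a relative of Kmt5b, varied widely within groups (9.18 ± 2.02, 10.8 ± 3.65 and 12.9 ± 3.54 FPKM) and did not pass (adjusted p = 0.420 and 0.0702).

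The 2 EZH enzymes, catalytic subunits of PRC2 that methylate H3K27, gave different calls. Ezh1 measured 9.27, 8.73, 9.40, 9.20 and 9.56 FPKM in the control samples, 11.99, 12.2, 12.4, 12.1 and 12.4 FPKM in the miR-144 samples and 12.6, 13.0, 11.9, 12.2 and 13.3 FPKM in the miR-451a samples. All miRNA samples were above all control samples, with a log2 fold change of 0.37 (SE 0.033, adjusted p = 1.06e-07) and 0.41 (SE 0.033, adjusted p = 3.11e-08), and the call was scaling-stable in each comparison. Ezh2, the form that dominates in dividing cells, was much lower in level per length than Ezh1 and had 1.06, 1.28, 1.12, 1.298 and 1.22 FPKM in control samples. It had 1.20, 1.24, 1.58, 1.31 and 1.48 FPKM in miR-144 and 1.46, 1.49, 1.33, 1.13 and 1.20 FPKM in miR-451a samples, which overlapped control. The Ezh2 difference did not pass (log2 fold change 0.10, adjusted p = 0.143, in the miR-144 group and 0.08, adjusted p = 0.2498, in the miR-451a group), and its sign turned under median centring, quantile normalization and removal of the length trend.

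Of the 7 KMT2 and SETD1 enzymes, which methylate H3K4 at promoters and enhancers, 5 were higher and none lower in each comparison as deposited (47.1% and 48.1% of all genes were higher), and 4 of these stayed higher under every scaling. Kmt2d, an enhancer methyltransferase, rose from 10.7 ± 0.49 to 15.6 ± 0.62 and 15.8 ± 1.14 FPKM (log2 fold change 0.50, adjusted p = 1.92e-07, in the miR-144 group and 0.52, adjusted p = 1.13e-07, in the miR-451a group). Kmt2c, its closest relative, rose from 4.67 ± 0.33 to 6.82 ± 0.63 and 7.09 ± 0.58 FPKM (log2 fold change 0.46, adjusted p = 1.30e-05, in the miR-144 group and 0.51, adjusted p = 4.20e-06, in the miR-451a group). Setd1b and Kmt2e had log2 fold changes of 0.41 and 0.42 and of 0.34 and 0.33 in the miR-144 and miR-451a groups, and Kmt2b of 0.28 and 0.24. Kmt2a and Setd1a did not pass as deposited, but Setd1a was called lower after median centring, and both were called lower with the length trend removed, in each comparison. After rescaling to TPM, 6 of the 7 enzymes were called higher in the miR-451a comparison, so either Kmt2a or Setd1a was among them. Setd1a shares 54.0% of its 50-base stretches with another annotated gene and is uncertain.

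Of the 5 other SETD genes tested, 3 were higher in the miR-144 and 4 in the miR-451a comparison, beside 47.1% and 48.1% of all genes, and 2 and 3 after median centring, beside 30.8% and 31.3%. Setd2, the enzyme that trimethylates H3K36 along transcribed genes, rose from 8.31 ± 0.24 to 11.99 ± 0.76 and 12.3 ± 0.72 FPKM, and Setd7, a monomethyltransferase, from 8.13 ± 0.0999 to 11.5 ± 0.46 and 11.9 ± 0.37 FPKM. Their log2 fold changes were 0.48 and 0.51 for Setd2 and 0.46 and 0.49 for Setd7, both scaling-stable. Setd5 was higher by 0.20 and 0.21 on the log2 scale, and Setd6 passed in the miR-451a comparison alone (adjusted p = 0.0754 and 0.0339). Setd3, which shares 15.1% of its 50-base stretches with another annotated gene, did not pass.

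The lysine demethylases held members at both ends. Of 15 tested, 10 were higher and 2 lower in the miR-144 comparison and 11 higher and 1 lower in the miR-451a comparison, beside 47.1% and 20.1%, and 48.1% and 20.3%, of all genes. After median centring these counts were 6 and 2, and 8 and 2, beside 30.8% and 30.7%, and 31.3% and 31.8%, of all genes, and the 6 of 15 is near that share. Kdm2b (ENSMUSG00000029475, chr5:122870665-122989823, minus strand) removes methyl groups from H3K36 and recruits a form of PRC1 to CpG islands. Kdm2b measured 2.67, 2.41, 2.504, 2.27 and 2.84 FPKM in the control samples, 4.09, 4.91, 4.74, 4.68 and 4.51 FPKM in the miR-144 samples and 4.73, 5.19, 4.52, 4.34 and 4.84 FPKM in the miR-451a samples. No control sample reached any miRNA sample. Its log2 fold change of FPKM + 1 was 0.66 (SE 0.054, adjusted p = 3.88e-08) in the miR-144 group and 0.69 (SE 0.054, adjusted p = 2.04e-08) in the miR-451a group. Kdm2b shares 12.5% of its 50-base stretches with other annotated transcripts.

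Its relative Kdm2a (ENSMUSG00000054611, chr19:4314419-4398285, minus strand) was noisier. Kdm2a measured 3.46, 5.80, 6.05, 5.91 and 3.51 FPKM in the control samples, 6.996, 7.21, 7.20, 7.13 and 9.35 FPKM in the miR-144 samples and 9.80, 7.31, 9.75, 9.47 and 5.47 FPKM in the miR-451a samples. Control samples fell at 3.46 to 3.51 FPKM in 2 cases and 5.80 to 6.05 FPKM in 3 cases, and miR-451a replicate 5, at 5.47 FPKM, lay between these levels. The log2 fold change of FPKM + 1 was 0.55 (SE 0.17, adjusted p = 0.00855) in the miR-144 group and 0.66 (SE 0.17, adjusted p = 0.00262) in the miR-451a group. The miR-144 difference did not pass after removal of the length trend (adjusted p = 0.103).

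Kdm7a (ENSMUSG00000042599, chr6:39136623-39206789, minus strand), a demethylase of repressive marks at H3K9 and H3K27, was lower. Kdm7a measured 13.0, 12.9, 12.1, 12.7 and 12.4 FPKM in the control samples, 10.54, 11.2, 11.8, 10.95 and 10.2 FPKM in the miR-144 samples and 11.3, 12.02, 11.02, 11.4 and 10.6 FPKM in the miR-451a samples. Each miRNA sample was below each control sample, by a margin that was small beside the level (log2 fold change -0.19, adjusted p = 7.75e-04, in the miR-144 group and -0.15, adjusted p = 0.00425, in the miR-451a group). Rescaling to TPM ended the call in the miR-451a group (log2 fold change -0.08, adjusted p = 0.149).

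Kdm6b (Jmjd3), a demethylase of H3K27 that inflammatory signals induce in macrophages, had 6.10, 5.16, 6.90, 6.34 and 5.13 FPKM in control samples. It had 4.33, 4.14, 5.29, 5.82 and 4.02 FPKM in miR-144 and 4.71, 4.57, 6.03, 5.83 and 4.60 FPKM in miR-451a samples, overlapping control in each case. It passed as lower in the miR-144 comparison (log2 fold change -0.28, adjusted p = 0.0261, in the miR-144 group and -0.17, adjusted p = 0.151, in the miR-451a group), and this call was lost without any one of 6 samples (control replicates 1, 3 and 4 and miR-144 replicates 1, 2 and 5, adjusted p 0.0506 to 0.0710) and after rescaling to TPM (adjusted p = 0.0661). In the miR-451a comparison Kdm6b passed as lower under median centring (log2 fold change -0.32, adjusted p = 0.0174), quantile normalization and removal of the length trend. Kdm6a, the X-linked relative of Kdm6b, rose from 5.14 ± 0.42 to 6.35 ± 0.60 and 6.64 ± 0.42 FPKM (log2 fold changes 0.26 and 0.32), a call that was not scaling-stable.

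Among demethylases of H3K4 and H3K9, Kdm5a, Kdm5b and Kdm3b were scaling-stable rises in each comparison. Kdm5a and Kdm5b, which remove methyl groups from H3K4, had log2 fold changes of 0.43 and 0.45 and of 0.37 and 0.42, at control levels of 4.43 and 1.27 FPKM. Kdm3b, an H3K9 demethylase, had 0.47 and 0.51, and 24.6% of its exon bases overlap a gene on the opposite strand. Kdm1a (Lsd1) had 0.16 and 0.24, Kdm3a 0.18 and 0.16, Kdm4a 0.16 and 0.22 and Kdm4c 0.24 and 0.21, and of these 4 Kdm1a was scaling-stable in the miR-451a and Kdm4c in the miR-144 comparison alone. As deposited, Kdm4b and Kdm8 did not pass in either comparison, and Kdm1b passed as higher only in the miR-451a comparison (adjusted p = 0.269 and 0.0364). Kdm1b and Kdm4b were called higher in each comparison after rescaling to TPM, but Kdm1b was called lower in the miR-144 comparison with the length trend removed. Kdm8 was called lower in the miR-451a comparison after quantile normalization.

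**Figure D3:**
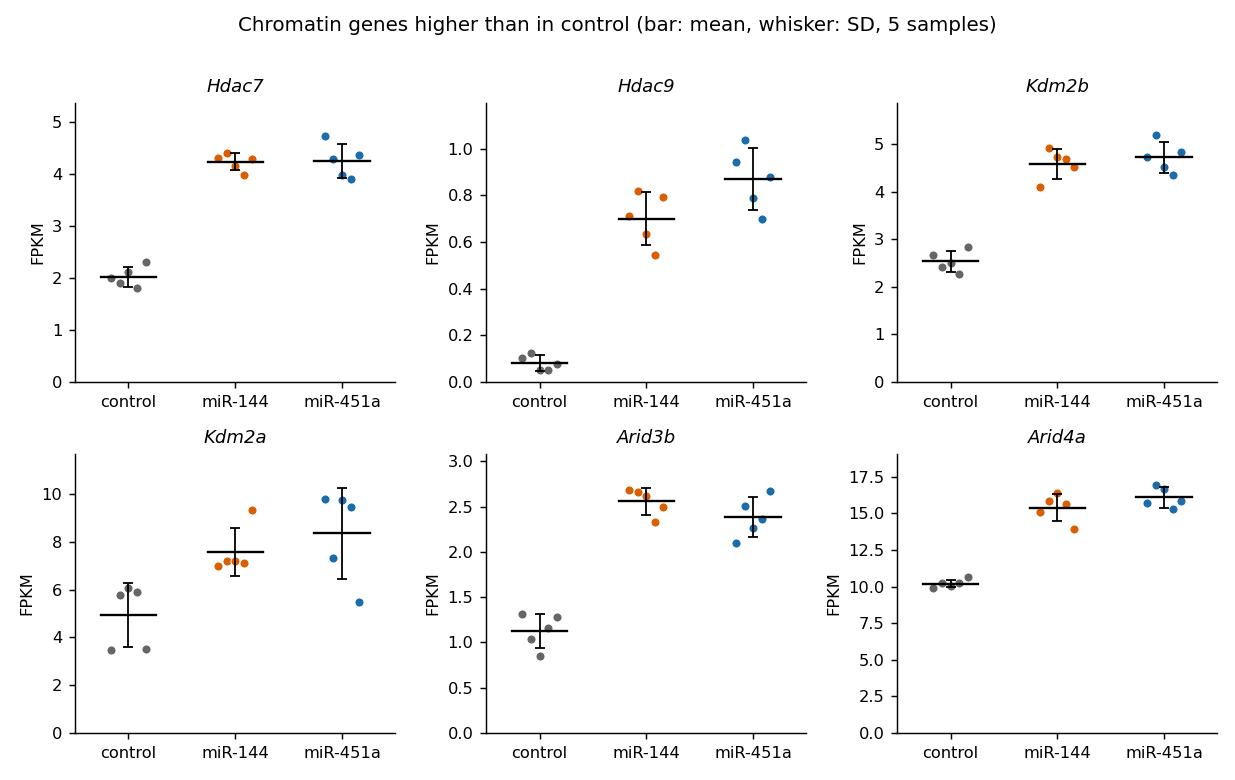
FPKM (y axis, linear from 0) of 6 chromatin genes called higher than control, in each of the 5 control, 5 miR-144 and 5 miR-451a samples (points), with the mean (bar) and SD (whisker). All miRNA samples lie above all control samples for Hdac7, Hdac9, Kdm2b, Arid3b and Arid4a, whereas 1 miR-451a sample of Kdm2a lies at 5.47 FPKM within the range of the control samples.

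Every HDAC tested was called higher in each comparison as deposited, 9 of 9, against 47.1% and 48.1% of all genes, and 5 of 9 were after median centring, against 30.8% and 31.3% of all genes. The class IIa enzymes Hdac7 and Hdac5 are described first, and Hdac4, of the same class, had a smaller difference (0.14 and 0.17 on the log2 scale). Class IIa deacetylases shuttle between cytoplasm and nucleus and bind MEF2 factors. Hdac7 (ENSMUSG00000022475, chr15:97792664-97844502, minus strand) measured 2.001, 1.90, 2.12, 1.80 and 2.30 FPKM in control samples, 4.31, 4.41, 4.16, 3.98 and 4.29 FPKM in miR-144 samples and 4.72, 4.29, 3.97, 3.90 and 4.36 FPKM in miR-451a samples. No control sample reached any miRNA sample, and the means in the miRNA groups were 209% and 210% of control. Its log2 fold change of FPKM + 1 was 0.79 (SE 0.052, adjusted p = 2.72e-09) in the miR-144 group and 0.80 (SE 0.052, adjusted p = 2.41e-09) in the miR-451a group, the largest rise of a tested member in each comparison on that scale.

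Hdac9 (ENSMUSG00000004698, chr12:34047580-34917095, minus strand), of the same class, was under the filter but above the estimated level of 3 fragments (0.0243 FPKM) in all 15 samples. Hdac9 measured 0.104, 0.125, 0.0499, 0.0510 and 0.0762 FPKM in the control samples, 0.711, 0.819, 0.636, 0.543 and 0.793 FPKM in the miR-144 samples and 0.945, 1.04, 0.788, 0.697 and 0.878 FPKM in the miR-451a samples. The mean in the miRNA groups was 863% and 1071% of control, with no overlap, and in the fit without a filter the log2 fold change was 0.65 (adjusted p = 3.05e-07) and 0.79 (adjusted p = 3.75e-08). Hdac5 rose from 9.12 ± 0.45 to 13.5 ± 0.57 and 13.7 ± 0.95 FPKM, and Hdac4, of which 22.4% of exon bases overlap a gene on the opposite strand, from 1.02 ± 0.034 to 1.23 ± 0.13 and 1.27 ± 0.031 FPKM.

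Of the 4 class I HDACs, the nuclear enzymes of corepressor complexes, 4 were higher as deposited in each comparison, beside 47.1% and 48.1% of all genes, and 1, Hdac1, after median centring, a smaller share than the 30.8% and 31.3% of all genes. Hdac1 rose from 9.53 ± 0.34 to 14.1 ± 0.85 and 13.9 ± 0.33 FPKM (log2 fold change 0.52, adjusted p = 1.23e-08, in the miR-144 group and 0.50, adjusted p = 1.67e-08, in the miR-451a group), but 58.7% of its 50-base stretches occur in a second annotated gene, so its level is uncertain. Hdac2 and Hdac3 had log2 fold changes of 0.13 and 0.11 and 0.12 and 0.11, near the medians of all genes, and Hdac8 of 0.23 and 0.16. Hdac6, the cytoplasmic tubulin deacetylase, had 0.24 and 0.27 and Hdac10 0.38 and 0.35. Hdac11 was under the filter at 0.101, 0.298 and 0.301 FPKM and passed narrowly without it (adjusted p = 0.0473 and 0.0497), with overlapping values.

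Of 8 lysine acetyltransferases, 5 were higher in each comparison as deposited, beside 47.1% and 48.1% of all genes. After median centring 2, Kat6a and Kat2b, were higher, a smaller share than the 30.8% and 31.3% of all genes, and 1, Kat7, was lower. Kat6a, the catalytic subunit of a histone H3 acetyltransferase complex, rose from 12.2 ± 0.13 to 17.5 ± 0.67 and 18.0 ± 0.68 FPKM (log2 fold change 0.49, adjusted p = 2.49e-09, in the miR-144 group and 0.53, adjusted p = 9.71e-10, in the miR-451a group). Kat2b (PCAF), a coactivator acetyltransferase, rose from 8.97 ± 0.44 to 11.2 ± 0.23 and 11.7 ± 1.04 FPKM. Kat2a and Kat8 had log2 fold changes of 0.22 and 0.24 and 0.20 and 0.21. Kat6b passed as higher as deposited (0.09 and 0.08) and as lower after removal of the length trend in each comparison and after quantile normalization in the miR-451a comparison. Kat5, Kat7 and Kat14 did not pass as deposited, Kat7 was also called lower after quantile normalization and removal of the length trend in each comparison, and Kat14 shares 17.2% of its 50-base stretches with an overlapping gene.

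Among the bromodomain genes, Brd1, Brd3, Brd7, Brd8 and Brd9 were higher in each comparison as deposited, as were 47.1% and 48.1% of all genes. After median centring Brd3 and Brd9 were still higher, as were 30.8% and 31.3% of all genes. Brd3, a bromodomain protein that binds acetylated histones, rose from 4.14 ± 0.13 to 5.70 ± 0.54 and 6.26 ± 0.27 FPKM (log2 fold change 0.38, adjusted p = 9.60e-06, in the miR-144 group and 0.50, adjusted p = 4.67e-07, in the miR-451a group), and Brd9, a subunit of a SWI/SNF variant, from 3.44 ± 0.088 to 4.69 ± 0.22 and 4.83 ± 0.19 FPKM. Brd1, Brd7 and Brd8, subunits of acetyltransferase or SWI/SNF complexes, had log2 fold changes of 0.14 and 0.15, 0.21 and 0.18 and 0.21 and 0.18. Brd2, a relative of Brd3 at 25.04, 24.1 and 24.6 FPKM, did not pass as deposited and was called lower in each comparison after median centring, quantile normalization or removal of the length trend.

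The SMARC subunits were mostly near the shift of all genes. Of 9 tested, 6 were higher and 1 lower in each comparison, beside 47.1% and 20.1%, and 48.1% and 20.3%, of all genes. After median centring 2 were higher and 2 lower, smaller shares than those of all genes (30.8% and 30.7%, and 31.3% and 31.8%). Smarca4 (Brg1), the main ATPase of SWI/SNF in macrophages, had 25.2, 24.4, 25.2, 23.6 and 25.3 FPKM in control, 24.4, 24.6, 23.7, 24.3 and 24.0 FPKM in miR-144 and 23.8, 24.8, 25.9, 24.7 and 25.3 FPKM in miR-451a samples. These ranges overlapped and the difference did not pass (log2 fold change -0.03, adjusted p = 0.376, in the miR-144 group and 0.01, adjusted p = 0.787, in the miR-451a group), and its direction depended on the scaling. After median centring it passed as lower, by -0.16 and -0.14, and after rescaling to TPM it passed as higher in the miR-451a comparison, by 0.09.

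Smarca2 (Brm), the alternative ATPase, was lower in level at 3.60, 3.61, 4.12, 3.78 and 3.90 FPKM in control samples. The miR-144 samples had 4.19, 4.98, 4.30, 4.70 and 4.31 FPKM and the miR-451a samples 4.99, 4.54, 4.24, 4.44 and 4.20 FPKM, all above the control values (log2 fold change 0.19, adjusted p = 0.00325, in the miR-144 group and 0.19, adjusted p = 0.00359, in the miR-451a group). The call was lost after median centring. Smarcd2, a subunit known for its role in granulocyte maturation, rose from 13.8 ± 0.35 to 18.8 ± 0.69 and 19.1 ± 0.83 FPKM, and Smarce1 from 8.37 ± 0.28 to 10.1 ± 0.25 and 10.2 ± 0.22 FPKM, and these were the 2 scaling-stable rises of the list in each comparison. Smarcb1, a core subunit and tumor suppressor, fell from 4.80 ± 0.21 to 4.23 ± 0.24 and 4.17 ± 0.20 FPKM (log2 fold change -0.15, adjusted p = 0.00462, in the miR-144 group and -0.17, adjusted p = 0.00210, in the miR-451a group), scaling-stable in the miR-451a comparison alone. Smarcc2 and Smarcd1 had log2 fold changes of 0.13 and 0.14 and 0.14 and 0.16. Smarcc1 passed as higher as deposited and as lower after removal of the length trend. Smarcd3, of which 48.2% of exon bases overlap a gene on the opposite strand, was at 1.297 ± 0.63, 0.949 ± 0.30 and 1.13 ± 0.24 FPKM and did not pass.

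Of 9 ARID genes tested, 8 were higher in the miR-144 and 6 in the miR-451a comparison, beside 47.1% and 48.1% of all genes. The counts were 5 and 6 after median centring, beside 30.8% and 31.3% of all genes, and 3 and 4 with the length trend removed, beside 30.3% and 31.5%. Arid5b was lower in the miR-451a comparison after median centring or quantile normalization, and in each comparison with the length trend removed. After rescaling to TPM all 9, Arid5b among them, were higher in the miR-144 comparison. Arid3b (ENSMUSG00000004661, chr9:57790353-57836793, minus strand) is a DNA-binding ARID protein. Arid3b measured 1.31, 1.04, 0.846, 1.16 and 1.28 FPKM in the control samples, 2.69, 2.66, 2.62, 2.33 and 2.49 FPKM in the miR-144 samples and 2.10, 2.51, 2.27, 2.36 and 2.68 FPKM in the miR-451a samples. The log2 fold change of FPKM + 1 was 0.75 (SE 0.064, adjusted p = 6.21e-08) in the miR-144 group and 0.67 (SE 0.064, adjusted p = 1.99e-07) in the miR-451a group, with no overlap, and the group means were 227% and 212% of control. Arid4a (ENSMUSG00000048118, chr12:71015990-71098592, plus strand), a retinoblastoma-binding partner of the SIN3 corepressor, stood at a higher level. Arid4a measured 9.92, 10.2, 10.02, 10.2 and 10.6 FPKM in the control samples, 15.1, 15.9, 16.4, 15.6 and 13.9 FPKM in the miR-144 samples and 15.7, 17.0, 16.7, 15.3 and 15.8 FPKM in the miR-451a samples. All miRNA samples were at 13.9 FPKM or above and all control samples at 10.6 FPKM or below (log2 fold change 0.55, adjusted p = 1.44e-08, in the miR-144 group and 0.61, adjusted p = 3.90e-09, in the miR-451a group).

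Arid1a and Arid1b, alternative subunits of the canonical SWI/SNF complex, had log2 fold changes of 0.37 and 0.38 and 0.25 and 0.30, and Arid2, the subunit of the PBAF form, and Arid4b, a relative of Arid4a, of 0.23 and 0.29 and 0.32 and 0.39. Arid5a, a protein known for stabilizing the mRNA of Il6, had 1.12, 1.12, 0.944, 0.642 and 1.24 FPKM in control, 1.35, 1.29, 1.31, 1.61 and 1.14 FPKM in miR-144 and 1.16, 0.999, 1.27, 1.49 and 1.11 FPKM in miR-451a samples. The values overlapped, and the miR-144 call (log2 fold change 0.22, adjusted p = 0.0290, in the miR-144 group and 0.14, adjusted p = 0.165, in the miR-451a group) was lost without control replicate 3 or 4 or miR-144 replicate 4 (adjusted p 0.0564 to 0.0780). It was also lost after median centring (log2 fold change 0.09, adjusted p = 0.374), quantile normalization (0.03, adjusted p = 0.778) and removal of the length trend (0.03, adjusted p = 0.803). As deposited, Arid3a passed in the miR-144 comparison alone (adjusted p = 0.0204 and 0.176), and Arid5b in neither.

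The CHD remodelers split into an abundant gene that fell and several genes that rose. Of 9 tested, 6 were higher and 1 lower in each comparison, beside 47.1% and 20.1%, and 48.1% and 20.3%, of all genes. After median centring 6 were higher and 3 (Chd4, Chd3 and Chd1l) lower in each comparison, beside 30.8% and 30.7%, and 31.3% and 31.8%, of all genes, so the 3 of 9 lower is about that share. Chd4 (ENSMUSG00000063870, chr6:125095981-125130591, plus strand), the ATPase of the NuRD complex, was the most abundant member, at a mean of 62.4 FPKM over all samples. Chd4 measured 70.7, 68.9, 69.7, 69.8 and 69.5 FPKM in the control samples, 56.9, 60.9, 59.7, 56.8 and 57.6 FPKM in the miR-144 samples and 58.9, 61.1, 58.8, 57.5 and 59.4 FPKM in the miR-451a samples. The control samples lay between 68.9 and 70.7 FPKM and the miRNA samples between 56.8 and 61.1 FPKM. The fitted log2 fold change of FPKM + 1 was -0.25 (SE 0.026, adjusted p = 4.89e-07) in the miR-144 group and -0.23 (SE 0.026, adjusted p = 1.10e-06) in the miR-451a group, and the call was scaling-stable in each comparison. Chd3, the alternative NuRD ATPase, was at 41.4 ± 2.35, 39.5 ± 2.09 and 38.4 ± 2.37 FPKM and did not pass as deposited (adjusted p = 0.254 and 0.0697). Chd3os, a gene named for its place opposite Chd3 and annotated as protein coding, was at 1.78 ± 0.22, 1.27 ± 0.40 and 1.64 ± 0.20 FPKM and was called lower in the miR-144 comparison (log2 fold change -0.31, adjusted p = 0.0193, in the miR-144 group and -0.07, adjusted p = 0.556, in the miR-451a group), with overlapping values.

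Chd9 rose from 2.80 ± 0.036 to 4.47 ± 0.089 and 4.67 ± 0.086 FPKM (log2 fold change 0.52, adjusted p = 1.13e-10, in the miR-144 group and 0.58, adjusted p = 3.42e-11, in the miR-451a group). Chd1, Chd2, Chd6 and Chd8 had log2 fold changes of 0.40 and 0.37, 0.44 and 0.41, 0.46 and 0.46 and 0.33 and 0.33 in the miR-144 and miR-451a groups, all scaling-stable, and 19.3% of the exon bases of Chd2 overlap other genes, mainly a gene on the same strand. Chd7 had 0.28 and 0.29, and Chd1l did not pass. Chd5, known mainly from neurons, was under the filter at 0.415 ± 0.049, 0.146 ± 0.039 and 0.162 ± 0.051 FPKM, and in the fit without a filter it was lower (log2 fold change -0.31, adjusted p = 5.48e-06, in the miR-144 group and -0.29, adjusted p = 1.01e-05, in the miR-451a group), with no overlap. Of the 3 ISWI and other SMARCA ATPases tested, Smarca5, Smarcad1 and Smarcal1, all were higher as deposited in each comparison (47.1% and 48.1% of all genes were), whereas after median centring 1 was in the miR-144 and none in the miR-451a comparison (30.8% and 31.3% of all genes). Smarca5 shares 35.3% of its 50-base stretches with another annotated gene.

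Of the 14 members under the filter, 12 had a value above 0 in some sample and were read from the fit without a filter over 29540 genes. There 3 passed in the miR-144 comparison (32.8% of all genes) and 5 in the miR-451a comparison (34.2% of all genes). These were Hdac9, Hdac11 and Chd5 in each, and Tet1 and Smarca1 in the miR-451a comparison, where the 2 latter were at means of 0.0258 and 0.0510 FPKM, close to the estimated level of 3 fragments. Arid3c, Dnmt3c, Dnmt3l and Kdm4d stayed under that level in every sample. Setd4 and Dnmt3b were measurable and did not pass, and Kdm6bos, the antisense transcript of Kdm6b, was above the estimated level of 3 fragments in 4 samples.

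**Figure D4:**
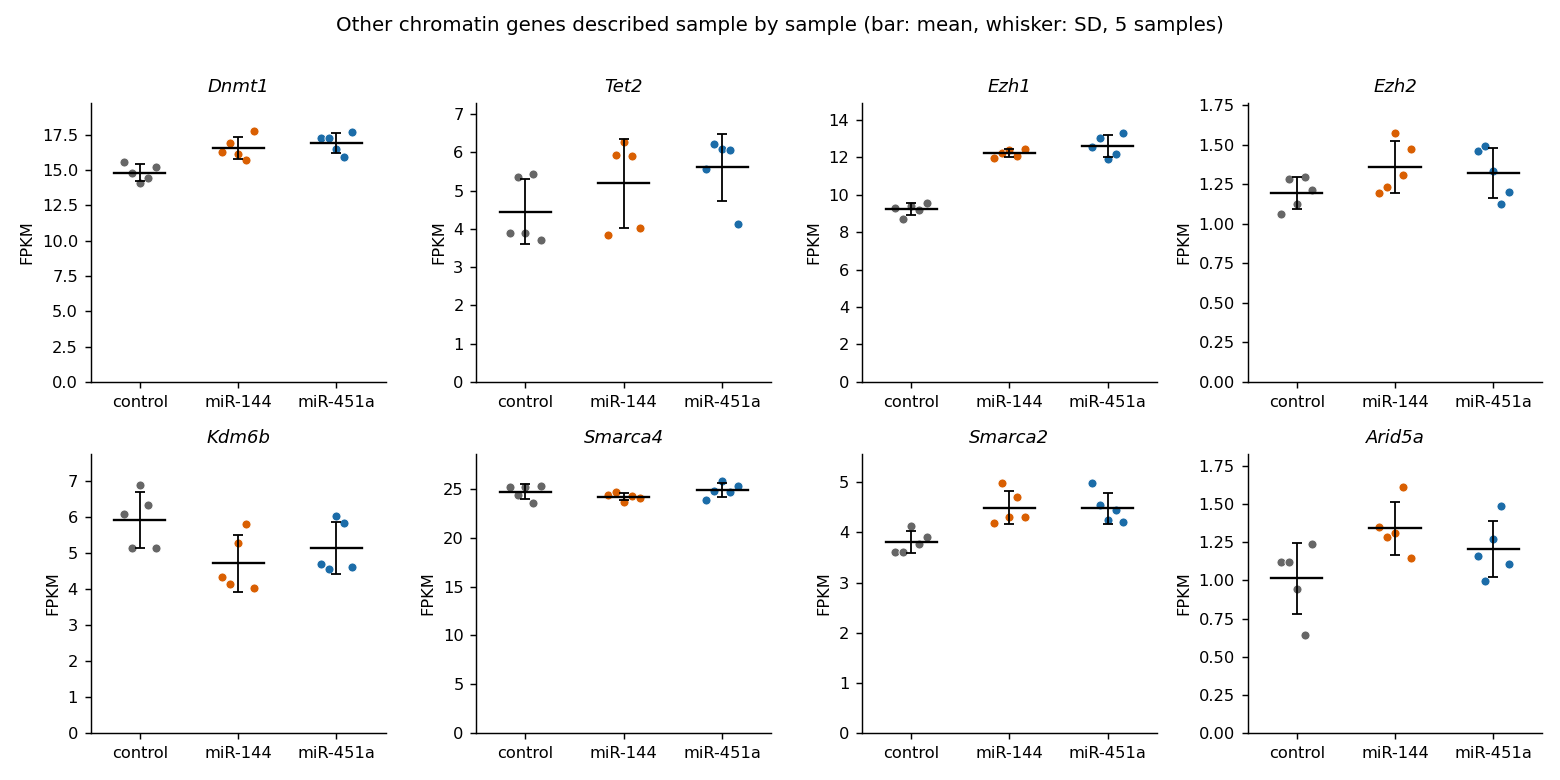
FPKM (y axis, linear from 0) of 8 further chromatin genes in each of the 5 control, 5 miR-144 and 5 miR-451a samples (points), with the mean (bar) and SD (whisker). Ezh1, Dnmt1 and Smarca2 of the miRNA groups lie above all control samples, while the groups overlap for Ezh2, Tet2, Kdm6b, Smarca4 and Arid5a.

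Differences between the 2 miRNA groups were small for these genes and none passed. Between TAMs from miR-451a and miR-144 tumors, 0 of 92 members passed in limma, beside 0 of all 11419 genes (0.0%), and 3 members had an unadjusted p under 0.05, against 5.22% of all genes. These were Kmt5b, Brd3 and Chd3os, at log2 differences of 0.15, 0.12 and 0.23. The values of the miRNA groups did not overlap for 1 tested member, Chd9 (0.849% of all genes), at a difference of 0.05. The differences of the 92 members ranged from -0.19 to 0.24 on the log2 scale. With single samples left out, at most 2 of all genes passed and no member did.

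Ratios of related genes within a sample do not change with a factor applied to the whole sample. The 8 pairs below were chosen with these values known, so the ratios, and whether groups overlap, are a description with no test. The ratio of Dnmt3a to Dnmt1 had a geometric mean of 1.45 in control samples (range 1.32 to 1.63) and 0.485 in miR-144 and 0.409 in miR-451a samples. In control TAMs the de novo enzyme was thus the more abundant mRNA in all 5 samples, and in the miRNA groups the maintenance enzyme was in all 10. The ratio of Kmt5a to Kmt5b was 6.25 in control, 1.95 in miR-144 and 1.52 in miR-451a samples. The ratio of Kdm6a to Kdm6b was 0.872 in control and 1.35 and 1.298 in the miRNA groups. For these 3 pairs neither miRNA group overlapped the control samples.

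The ratio of Hdac7 to Hdac5 was 0.221 in control samples and 0.313 and 0.311 in the miR-144 and miR-451a samples, and that of Hdac1 to Hdac2 was 1.45 against 1.92 and 1.94. Smarca4 to Smarca2 was 6.51 against 5.40 and 5.56, and for none of these 3 pairs did a miRNA group overlap the control samples. Ezh1 to Ezh2 was 7.73 in control samples, 9.04 in miR-144 samples and 9.58 in miR-451a samples, with overlapping values in each case. Arid1a to Arid1b was 1.90 in control, 2.05 in miR-144 and 1.99 in miR-451a samples, of which the miR-451a samples overlapped the control samples.

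**Figure D5:**
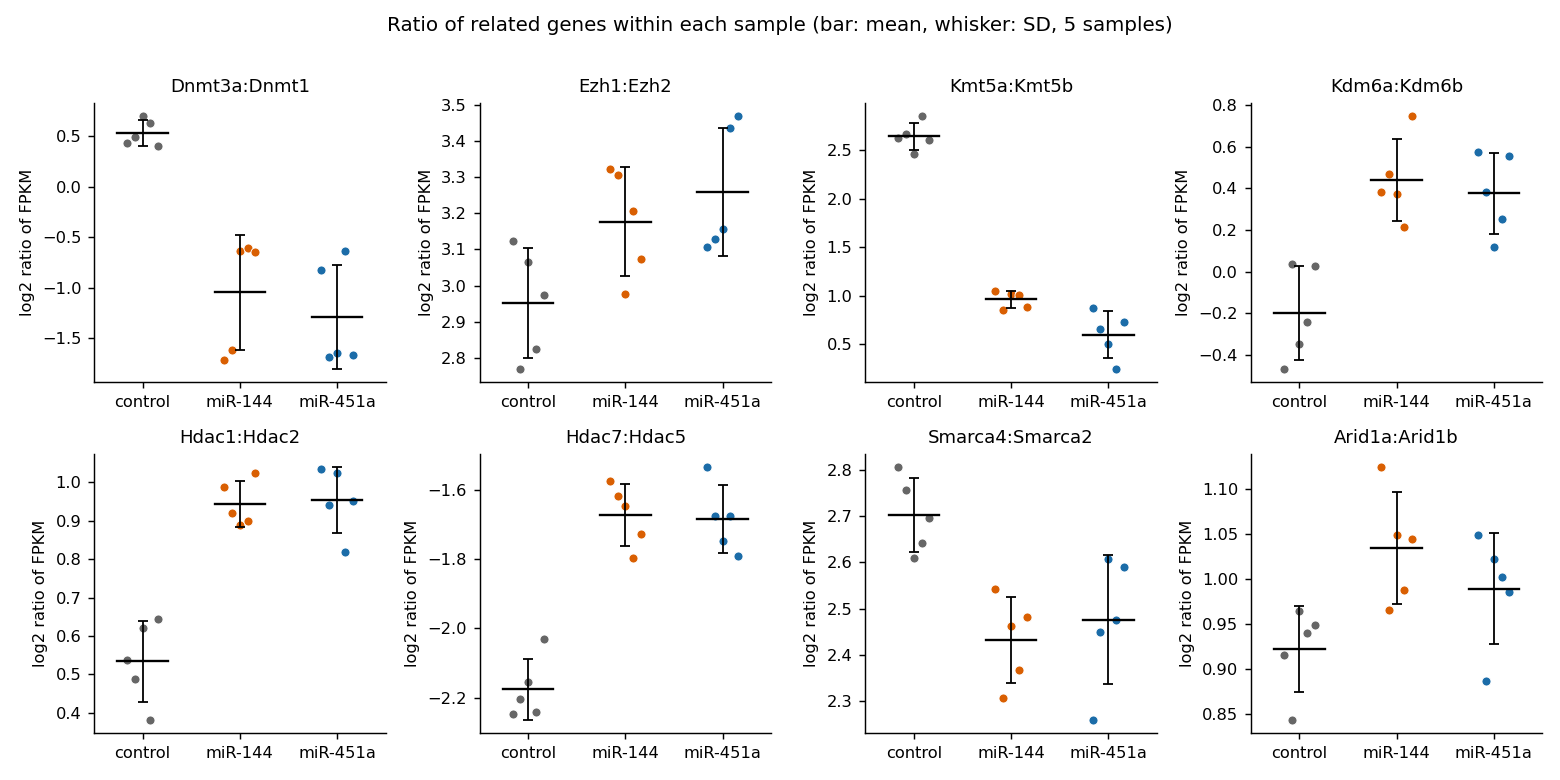
Log2 ratio of FPKM (y axis, a separate range in each panel) of 8 pairs of related chromatin genes within each of the 5 control, 5 miR-144 and 5 miR-451a samples (points), with the mean (bar) and SD (whisker). Dnmt3a to Dnmt1 and Kmt5a to Kmt5b lie lower in all miRNA samples than in all control samples, whereas Ezh1 to Ezh2 overlaps.

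The miRNAs that set the groups apart are written here with their seed, bases 2 to 8, in capitals, since a match to the seed in a 3′ UTR is the usual mark of a candidate target. The mature sequences are from RefSeq (GRCm38.p6), where both genes lie on chromosome 11.
mmu-miR-144-5p: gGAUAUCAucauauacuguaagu
mmu-miR-144-3p: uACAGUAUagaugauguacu
mmu-miR-451a: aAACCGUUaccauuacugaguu
The match to the seed was searched on the sense strand of the 3′ UTR of the longest coding transcript, which could be read for 91 of the members and 10010 of all genes tested. For miR-144-3p (ATACTGT) it occurred in 15 members (16.5%), against 13.7% of all genes, for miR-144-5p (TGATATC) in 6 (6.59%), against 5.66%, and for miR-451a (AACGGTT) in 2 (2.20%), Kdm5a and Setd5, against 1.87%. Dnmt3a, Kmt5a, Ezh1 and Ezh2 had no match to any of the 3 seeds in this window. The search took only exact matches to bases 2 to 8, so shorter sites and sites in other transcripts would be missed. The study reports, from a luciferase assay, that miR-144 acts on the 3′ UTR of mouse Ezh2. That report was not tested here. A match is a description of letters and was not tested as a binding site, and the miRNAs were overexpressed in the tumor cells.

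Members with and without a match are given side by side, with no test. The 15 members with the miR-144-3p match had a median log2 fold change of 0.21 in the miR-144 comparison, and the 76 without it 0.22. Of the 15, 13 were called higher and none lower, and of the 76, 52 were called higher and 7 lower, beside 47.1% and 20.1% of all genes. Of the 6 members with the miR-144-5p match, 5 were called higher and 1, Chd4, lower in the miR-144 comparison, and of the 85 without it 60 were called higher and 6 lower, beside the same shares of all genes. The medians were 0.34 with the match and 0.21 without it. Both members with the miR-451a match were called higher in the miR-451a comparison, as were 63 of the 89 without it and 48.1% of all genes, with medians of 0.33 and 0.23. The match is shown in capitals with 11 bases on either side for the TET genes, of which Tet3 holds a match to both miR-144 arms, for Arid1a and Kat6a, which hold 2 matches each as does Arid2, and for Chd4. For Arid1a and Kat6a the capitals mark the first match, and the second match of Arid1a ends the printed stretch in lower case.
Tet2, miR-144-3p: ggtggttataaATACTGTaagtattgtaa
Tet3, miR-144-3p: tggcccaggtgATACTGTtgctggcagtg
Tet3, miR-144-5p: cgcttctattcTGATATCagggatgcttt
Arid1a, miR-144-3p: ctgtacacctgATACTGTaaacatactgt
Kat6a, miR-144-3p: gagacacaaaaATACTGTaagtctcactt
Chd4, miR-144-5p: aagacccagagTGATATCcacctccacca
Of these, Tet3, Arid1a and Kat6a were called higher in each miRNA group, Chd4 was lower and Tet2 did not pass, with the values given above.

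Partner genes of the same complexes that the symbol rule does not match were read from a list of 88 genes, of which 80 were tested. In the miR-144 comparison 53 were higher and 5 lower, beside 47.1% and 20.1% of all genes, and in the miR-451a comparison 55 were higher and 6 lower, beside 48.1% and 20.3% of all genes. The median log2 fold changes were 0.23 and 0.24, beside 0.13 and 0.14 for all genes. Against the same shares of all genes, H3K9 methylation genes were higher in 8 of 10 and 10 of 10 cases, PRC1 genes in 9 of 11 in each comparison, corepressor subunits in 8 of 12 with 2 lower, and PRC2 partners in 3 of 7 and 4 of 7 with 1 lower. By the mean log2 fold change of both comparisons, the largest rises were Cbx7, a PRC1 subunit that reads methylated H3K27, from 1.19 ± 0.19 to 4.01 ± 0.27 and 4.34 ± 0.27 FPKM (adjusted p = 1.54e-10 and 5.88e-11), and Suv39h2, an H3K9 methyltransferase, from 0.705 ± 0.067 to 1.70 ± 0.080 and 1.87 ± 0.25 FPKM. The largest falls were Dot1l, the H3K79 methyltransferase, from 19.1 ± 1.23 to 9.79 ± 0.63 and 8.97 ± 0.76 FPKM (adjusted p = 2.58e-09 and 6.04e-10), and Mtf2, a PRC2 accessory protein, from 5.20 ± 0.56 to 3.98 ± 0.80 and 3.56 ± 0.69 FPKM (adjusted p = 0.0227 and 0.00315).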

How the data were processed

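TAMs of 15 samples were profiled by RNA-seq. The authors deposited 1 table of FPKM values per gene and sample, and the submitters' processing notes name FastQC 0.11.2, STAR and StringTie. The genome build, annotation and strand setting were not given in the sources used here. Coordinates, lengths and 3′ UTRs were taken from GENCODE M21 (GRCm38), which held 99.7% of the gene IDs, and miRNA sequences from RefSeq. Counts could not be recovered from the FPKM steps, since 33.8 to 46.3% of low values lay on a step where 10% would by chance.

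The 3 groups entered 1 limma fit (3.58.1, R 4.3.3) with a mean-variance trend on log2(FPKM + 1), with Benjamini-Hochberg adjustment over the 11419 genes whose mean reached 1 FPKM. Genes under this filter were read from a fit without it. The members, gene lists and pairs were chosen with earlier results of these data known. Values of all samples are given for the 5 members with the largest mean rise and the 5 with the largest mean fall among those called in both comparisons, and for members with known roles, and partner genes are named as the 2 largest in each direction. Results for 1 member are not reported here singly. Smarcb1 and the ratios were added after values were seen. The fit was tested on simulated data for miR-144 against control, over 11419 genes, with 50 genes moved at each step. It called 98% of genes moved by a log2 step of 1.0 and 42% of those moved by 0.25. In the real comparison 67.2% of all genes were called, so the simulated setting differs and these shares do not describe the power on these data. The alternatives were other scalings, filters, pseudocounts and fits, a replicate block, and leaving out each sample. Removal of a length trend was added after seeing the data. The level of 3 fragments rests on the depth estimated from the FPKM steps, is approximate and covers counting error only.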

Additional observations from a re-analysis of the deposited data

Results flagged for a closer look

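Kdm2a in TAMs from miR-144 tumors had 1 sample far from the others of its group, at a level that some miR-451a samples shared. Across the 10 miRNA samples, 6 lay at 5.47 to 7.31 FPKM and 4, this one among them, at 9.35 to 9.80 FPKM. Replicate 5 stood at 9.35 FPKM and the nearest other sample at 7.21 FPKM, a gap of 0.907 of the range of the group, which is past Dixon's critical value for 5 samples. Of 81 groups of 5 samples examined, 4.05 would be flagged by chance and 1 was.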

How the results depend on the processing

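The numbers of members called were within 1.5 times the reported 73, 71 and 0 under every alternative run, except that with a minimum log2 fold change of 1 there were 3 and 3 against control. Leaving out single samples gave 71 to 74 members for miR-144, 66 to 71 for miR-451a and 0 to 0 between the miRNA groups. For partner genes (58 and 61) the counts were 38 for miR-144 with a minimum mean of 5 FPKM, and 1 and 2 with a minimum log2 fold change of 1, and 54 to 59 and 56 to 63 with single samples left out. The median log2 fold change of the members (0.209 and 0.226) was 0.030 and 0.037 with the length trend removed, 0.075 and 0.081 after median centring, 0.073 and 0.096 after quantile normalization, 0.2496 and 0.257 with a pseudocount of 0.1 and 0.307 and 0.324 after rescaling to TPM. It was 0.201 without a filter for miR-451a, and 0.209 to 0.226 and 0.202 to 0.238 with single samples left out. Over all genes, 4776 and 4821 passed with a minimum mean of 5 FPKM and 888 and 944 with a minimum log2 fold change of 1. Of 888 values of the named genes under the alternatives, 832 kept direction and side of the threshold, 25 lost the call, 11 gained it and 20 changed sign; the cause was not tested.

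The sign changes all belonged to small differences. With the length trend removed, Ezh2 was -0.020 and -0.051, Dnmt1 -0.053 and -0.034 and Smarca2 -0.010 and -0.027 for miR-144 and miR-451a, Tet2 was -0.050 for miR-144, and Smarca4 was -0.215 and Arid5a -0.073 for miR-451a. After median centring Ezh2 was -0.033 and -0.066, and for miR-451a Smarca4 was -0.135 and Arid5a -0.0086. After quantile normalization Ezh2 was -0.083 and -0.118, and for miR-451a Smarca4 was -0.036 and Arid5a -0.071. Smarca4 was 0.040 for miR-144 after rescaling to TPM, and for miR-451a -0.0075 without control replicate 4 and -0.0042 without miR-451a replicate 3, in a range of -0.0075 to 0.024 with single samples left out. Without a filter, Kdm6b and Arid5a lost their miR-144 calls (adjusted p = 0.0573 and 0.0650 in limma).

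Samples of different groups share a number, and the labels do not say what it marks. Deviations of same-numbered samples correlated by -0.012, 0.140 and 0.101 on average in the 3 pairs of groups, beside 0.003, -0.035 and -0.025 for other numbers. In these pairs 0, 3 and 1 numbers correlated best with themselves. Between control and miR-451a the lowest same-number correlation was 0.066. Whether the number marks a shared mouse or batch was not tested. With the replicate block, 72, 71 and 0 members and 58 and 63 partner genes were called and the medians stayed at 0.209 and 0.226, Kdm6b and Tet2 passed for miR-451a and Arid5a did not for miR-144. No statement is made on members under the estimated level of 3 fragments.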

Other observations

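Some members took 2 levels that the groups do not separate. Dnmt3a in the 10 miRNA samples lay at 4.94 to 5.56 FPKM in 5 samples and at 9.72 to 11.4 FPKM in the other 5. Tet2 in the same samples lay at 3.85 to 4.12 FPKM in 3 samples and at 5.56 to 6.28 FPKM in 7. Kmt5c in the 10 miRNA samples lay at 8.73 to 11.5 FPKM in 7 samples and at 16.4 to 17.3 FPKM in 3. Kdm2a in the same samples lay at 5.47 to 7.31 FPKM in 6 samples and at 9.35 to 9.80 FPKM in 4. These genes were chosen after their values were seen, and most members varied less, with a median coefficient of variation within groups of 5.06%.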
